A study of Homo sapiens with 21 samples.

Results

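The insulin-like growth factor (IGF) axis was followed through 10 genes across all groups of the experiment. They are the ligands IGF1 and IGF2, the receptors IGF1R and IGF2R, and the binding proteins IGFBP2 to IGFBP7. They were taken by symbol as a list of ligand, receptor and binding protein genes. No rule on their values was used, but the list was chosen with earlier results of these data known. All 10 were found among the 57820 genes in the count table and were among the 30549 tested. Transcript levels came from RNA-seq of the cell line A673, which was established from an Ewing sarcoma and carries the EWS/FLI fusion. The 21 libraries fell into 7 groups of 3, and every group came from this single cell line. Control cells (iLuc) received an shRNA against luciferase together with an empty cDNA vector and kept their own fusion. Depleted cells (iEF) received an shRNA aimed at the 3′ UTR of the fusion mRNA, again with the empty vector. The other groups received the iEF shRNA together with a cDNA in the retroviral vector pMSCV-hygro. WT-EF cells received full-length EWS/FLI. Δ22 (del22 in the labels) lacks the EWS domain. In mut9 most of the EWS domain is removed and both of its ends are kept. DAF is of full length, with many tyrosines of the EWS repeats changed to alanine, and DAF-mut9 carries alanine in place of the repeat tyrosines that remain in mut9. Cells were infected with the shRNA on day 1, then with the cDNA virus on day 5, and selection with puromycin (2 µg/ml) plus hygromycin (400 µg/ml) ran until day 16. By the study's account the 3 replicates were separate rounds of knockdown and rescue, all in this cell line. The p-values measure the spread between libraries that is left after a term for the replicate set, estimated over all 21 libraries.

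IGF1 and IGF2 bind the receptor tyrosine kinase IGF1R, which signals through insulin receptor substrates to PI3K and AKT, while IGF2R binds IGF2 and carries it to the lysosome. The binding proteins hold IGFs outside the cell, lengthen their lifetime and limit or direct their access to the receptor, and proteases release the ligand again. IGF1R signalling is long known as a growth and survival pathway of Ewing sarcoma cells. EWS/FLI joins the low-complexity activation domain of EWS to the ETS DNA-binding domain of FLI1, which recognises a GGAA core, and it both raises and lowers the transcripts of its target genes.

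Promoter sequences are shown because GGAA is the core bound by FLI1, for the 4 genes whose group means spread most among the 8 with a promoter window. IGF2 and IGFBP7 had none. They are the 250 bases before each RefSeq start site, 5′ to 3′ on the gene's strand in GRCh38.p14, with the core GGAA in capitals, as is TTCC where the core lies on the other strand. IGF1 has 2 RefSeq starts, at chr12:102478551-102478800 and chr12:102481748-102481997 on the minus strand. The IGFBP3 window is chr7:45921273-45921522 and the IGFBP5 window is chr2:216695550-216695799, both on the minus strand. The IGFBP6 window is chr12:53097417-53097666 on the plus strand.
IGF1 first window: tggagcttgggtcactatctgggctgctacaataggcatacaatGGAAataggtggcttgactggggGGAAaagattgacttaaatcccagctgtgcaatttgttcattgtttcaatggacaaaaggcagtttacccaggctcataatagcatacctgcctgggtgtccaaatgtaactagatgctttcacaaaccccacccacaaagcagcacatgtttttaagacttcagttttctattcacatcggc
IGF1 second window: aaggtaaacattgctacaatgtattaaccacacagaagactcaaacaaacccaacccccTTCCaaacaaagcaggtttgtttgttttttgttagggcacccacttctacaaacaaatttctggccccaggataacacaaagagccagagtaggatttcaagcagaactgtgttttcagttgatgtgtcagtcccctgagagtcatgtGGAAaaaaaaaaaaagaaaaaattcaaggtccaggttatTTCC
IGFBP3: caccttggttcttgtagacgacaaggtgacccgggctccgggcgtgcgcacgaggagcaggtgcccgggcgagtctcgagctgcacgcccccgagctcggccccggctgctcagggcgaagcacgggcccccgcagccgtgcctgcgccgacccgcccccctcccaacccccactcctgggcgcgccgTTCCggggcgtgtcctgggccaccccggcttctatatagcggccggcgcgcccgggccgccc
IGFBP5: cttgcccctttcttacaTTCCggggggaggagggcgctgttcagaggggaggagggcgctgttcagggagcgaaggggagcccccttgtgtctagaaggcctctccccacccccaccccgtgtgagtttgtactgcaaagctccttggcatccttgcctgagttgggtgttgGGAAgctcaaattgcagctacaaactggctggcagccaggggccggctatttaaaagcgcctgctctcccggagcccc
IGFBP6: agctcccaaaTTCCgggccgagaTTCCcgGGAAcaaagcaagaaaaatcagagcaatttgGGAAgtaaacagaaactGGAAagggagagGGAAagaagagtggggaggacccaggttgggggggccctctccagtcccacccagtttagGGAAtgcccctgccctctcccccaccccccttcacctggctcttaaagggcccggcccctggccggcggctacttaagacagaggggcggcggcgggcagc

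Searches covered both strands and used the core GGAA, the longer form CCGGAA, and the tandem repeat GGAAGGAA. Every match of a longer motif also holds the core. The core was present in 92.7% of all 35116 promoter windows of the same length, with a median of 3 matches. CCGGAA was present in 14.5% of them. The tandem GGAAGGAA was present in 3.06%. IGFBP6 held 7 GGAA matches, the IGF1 windows 2 and 3, IGFBP5 2 and IGFBP3 1. CCGGAA occurred once each in the windows of IGFBP3, IGFBP5, IGFBP6 and IGF2R. It was not found in those of IGF1, IGF1R, IGFBP2 or IGFBP4. GGAAGGAA was not found in any of the 11 windows of the 8 members that had one.

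Library totals ran from 32897083 to 46210348 counts, so a level of 1 CPM, the count scaled to the library total with TMM factors, stood for 31.96 to 45.2 counts. FLI1, whose reads come from the fusion as well as the cDNAs, was at 61.3, 60.6 and 89.0 CPM in iLuc and at 20.8, 20.02 and 21.1 CPM in iEF. It was at 21.9, 25.2 and 26.5 CPM in WT-EF. Libraries held 28.3 to 33.4 CPM with mut9, 35.1 to 39.8 with DAF, 34.6 to 37.3 with DAF-mut9 and 41.3 to 62.0 with Δ22. In each of these groups all 3 libraries lay above those of iEF. The FLI1 level thus differed between the groups compared below, as did the constructs. Its part in the differences of the members was not tested. Of 6 markers of the Ewing line, STEAP1, NR0B1, NKX2-2, LIPI and CCND1 were detected in every library, while CD99 had at most 8 counts. Whether the low CD99 count came from the cells or from the mapping and counting of its reads was not tested. CD3E, MYOD1 and ADIPOQ, markers of T cells, muscle and fat, had at most 2 counts in any library. For the other blood, epithelial, endothelial and muscle markers, KRT5, CDH1, EPCAM, CDH5, PTPRC, DES and CD14, the highest library held between 5 and 115 counts. The mesenchymal genes COL1A1, COL3A1 and THY1 were all detected, and their summed level was 82.9 to 98.4 CPM in iLuc, 234 to 282 in WT-EF, 303 to 419 in mut9, 487 to 557 in DAF, 417 to 586 in DAF-mut9, 270.0 to 540 in Δ22 and 309 to 701 in iEF. This sum was thus lowest in iLuc, as were several binding proteins, and its part in their values was not tested. By group mean COL1A1 and COL3A1 were each lowest in iLuc, but THY1 was not. THY1 averaged 61.4 CPM in iLuc, above 47.3 in WT-EF, 58.6 in mut9 and 55.3 in Δ22. It was below 125 in DAF, 64.4 in DAF-mut9 and 65.5 in iEF. In bulk RNA, fewer cells that use a gene and less RNA per cell cannot be told apart.

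**Figure D1:**
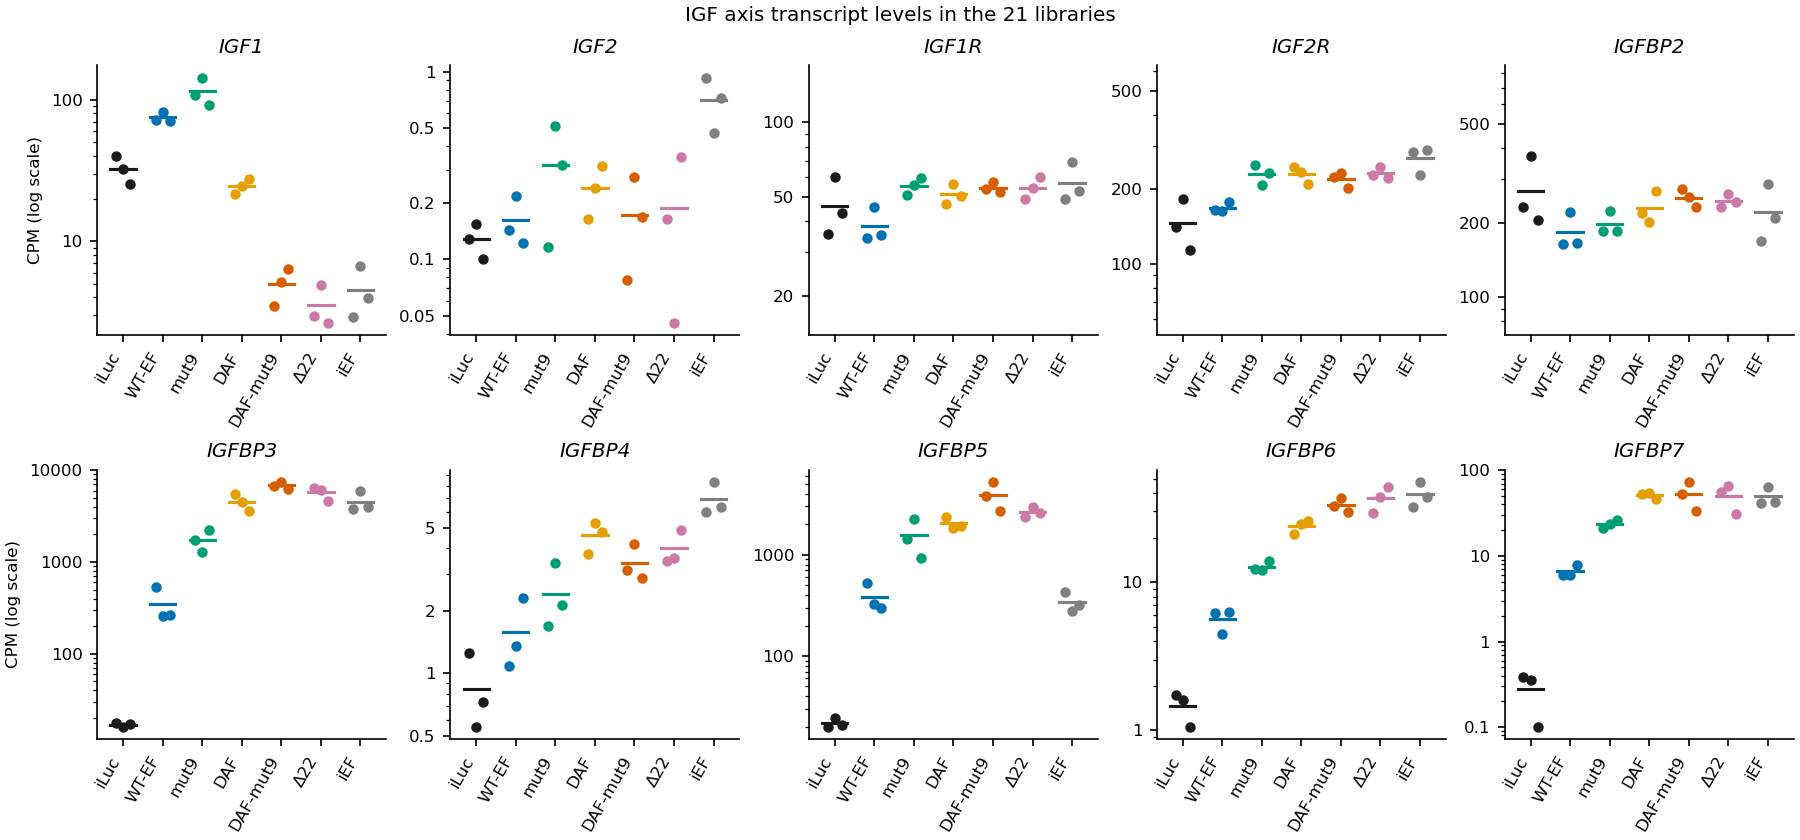
Levels of the 10 IGF axis transcripts in CPM on a log axis, by group, with a point for each library and a line at the mean of 3. IGF1 is highest with mut9 (114 CPM), while IGFBP3, IGFBP5, IGFBP6 and IGFBP7 are lowest in iLuc, and IGF1R and IGFBP2 stay within a narrow range.

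Each group was first compared with iEF, to ask what the endogenous fusion or a construct changes in depleted cells. A gene was called higher or lower at a Benjamini-Hochberg adjusted p below 0.05 in edgeR's quasi-likelihood test over all genes. These comparisons share the iEF libraries, so their values are given side by side. In iLuc, 8 of 10 members differed from iEF, with 1 higher and 7 lower, where 41.1% of all tested genes were called, 18.7% higher and 22.4% lower. With WT-EF the count was again 8, with 1 higher and 7 lower, beside 28.3% of all genes (11.4% higher and 16.9% lower). With mut9, 2 members were higher and 4 lower, beside 14.6% of all genes (6.22% and 8.33%). With DAF, 2 were higher and 1 lower, beside 7.42% (3.41% and 4.02%). DAF-mut9 and Δ22 each changed 2 members, 1 in each direction, beside 3.40% (1.26% and 2.14%) and 2.67% (0.881% and 1.79%) of all genes. The median log2 fold change of the 10 members was -2.75 in iLuc, -1.39 with WT-EF and -0.62 with mut9. For Δ22 it was -0.07, for DAF -0.08 and for DAF-mut9 0.02, while the medians of all tested genes lay between -0.03 and 0.02.

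**Figure D2:**
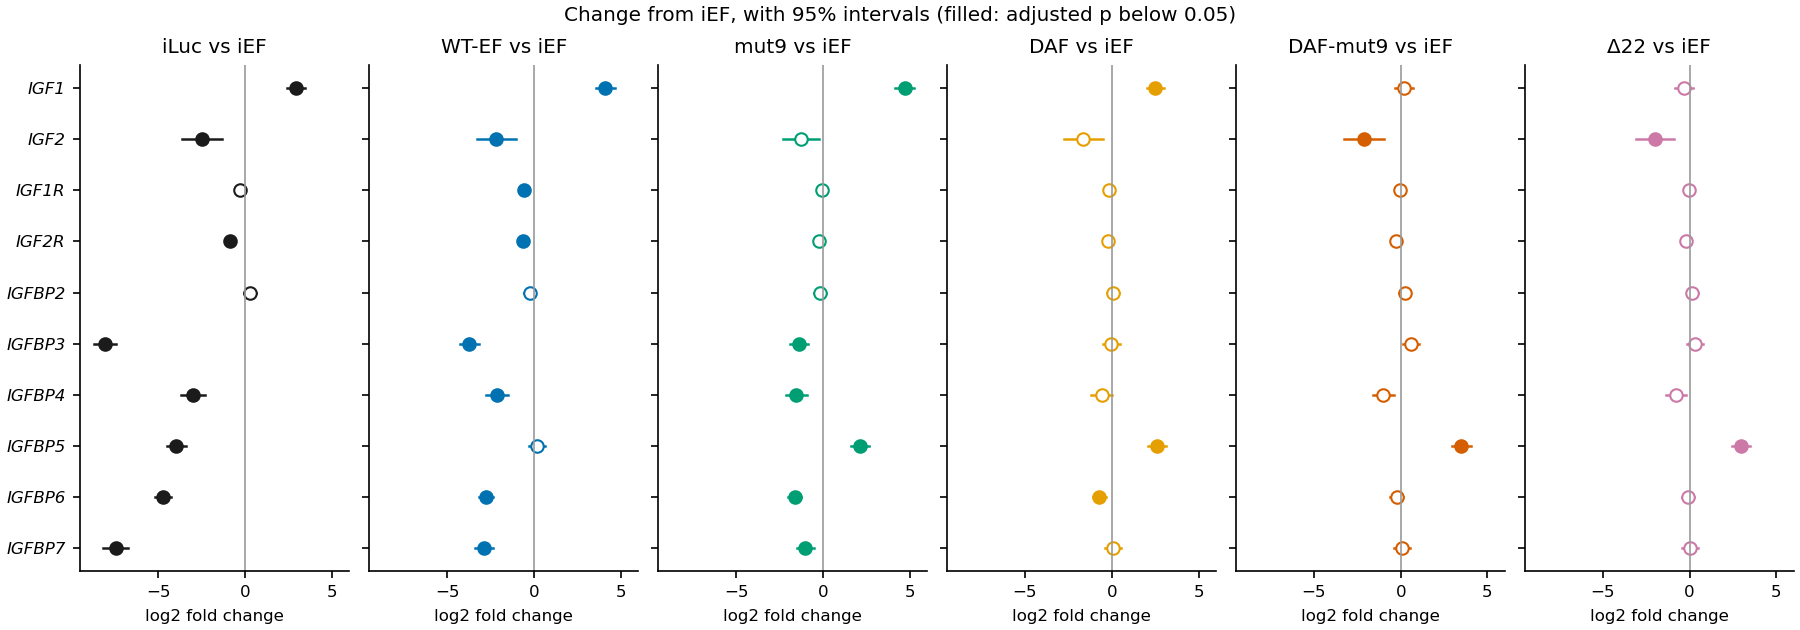
Log2 fold change of each member from iEF in 6 comparisons, with 95% intervals of the fitted model; filled points passed an adjusted p of 0.05. IGF1 moves to the right with the endogenous fusion, WT-EF, mut9 and DAF, and IGFBP5 moves to the left in iLuc but to the right with the mutant constructs.

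IGF1, the ligand of IGF1R, was higher than in iEF with the endogenous fusion, WT-EF, mut9 and DAF, and was not called with DAF-mut9 or Δ22. It measured 2.89, 6.63 and 3.94 CPM in iEF and 40.1, 32.2 and 25.5 CPM in iLuc. WT-EF libraries held 72.3, 81.9 and 70.6 CPM, and mut9 libraries 108, 144 and 91.2 CPM. These 3 groups did not overlap with iEF or with each other. The rise over iEF was 7.57-fold in iLuc (log2 2.92 ± 0.25, SE, adjusted p = 5.0e-09). It was 17.2-fold with WT-EF (4.11 ± 0.26, adjusted p = 3.8e-10) and 26.0-fold with mut9 (4.70 ± 0.26, adjusted p = 2.1e-10).

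DAF libraries held 21.7, 24.8 and 27.6 CPM of IGF1, all above every iEF library and overlapping with iLuc. This was a rise of 5.70-fold over iEF (log2 2.51 ± 0.24, adjusted p = 1.6e-06). DAF-mut9 libraries held 3.49, 5.10 and 6.39 CPM and Δ22 libraries 2.96, 4.93 and 2.65 CPM, both within or close to the range of iEF. Their log2 differences from iEF were 0.20 (95% interval -0.31 to 0.71, adjusted p = 0.79) and -0.33 (-0.85 to 0.19, adjusted p = 0.63). All calls of IGF1 against iEF held when any single library was left out. IGF1 lies at chr12:102789652-102875522 on the minus strand (GRCh37), and 82.5% of its exon bases are shared with HELLPAR, a noncoding RNA gene on the other strand in GENCODE 44. The strand setting of the counting is not stated, so reads of the pair cannot be told apart.

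IGF2, the fetal growth ligand, was near the limit of detection in every group. Its highest library, in iEF, held 40 counts, and the lowest, in Δ22, held 2. Levels were 0.93, 0.47 and 0.73 CPM in iEF, 0.13, 0.15 and 0.10 in iLuc and 0.14, 0.22 and 0.12 in WT-EF, so neither group overlapped with iEF. IGF2 was called lower in iLuc (log2 -2.50 ± 0.56, adjusted p = 0.0011) and with WT-EF (-2.17 ± 0.54, adjusted p = 0.0042). The calls with DAF-mut9 (-2.10 ± 0.55, adjusted p = 0.036) and Δ22 (-1.99 ± 0.53, adjusted p = 0.0496) were not stable. The first was lost without iEF replicate 1 (adjusted p = 0.16) or 3 (0.090), or without DAF-mut9 replicate 1 (0.20), 2 (0.065) or 3 (0.16). The second was lost when any of 17 of the 21 libraries was left out, with a highest adjusted p of 0.23 without Δ22 replicate 2. With mut9 and DAF the log2 values were -1.25 (adjusted p = 0.11) and -1.64 (adjusted p = 0.066). Without iEF replicate 2 both were called, at adjusted p = 0.049 and 0.031, and DAF was also called without Δ22 replicate 2 (0.033). Of the exon bases of IGF2, 44.4% overlap other genes, INS-IGF2 among them, so its counts are uncertain.

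IGF1R, the signalling receptor, changed little. Its group means ran from 38.3 ± 6.23 CPM (SD, n = 3) with WT-EF to 57.0 ± 10.6 CPM in iEF, a ratio of 1.49, and each group in that order overlapped with the next. WT-EF libraries, at 34.3, 45.5 and 35.1 CPM, lay below iEF at 49.1, 69.02 and 52.8 CPM. The log2 difference was -0.57 ± 0.12 (adjusted p = 0.0014). In iLuc it was -0.31 ± 0.12 (adjusted p = 0.0505), with ranges that overlapped, and it passed the threshold without iLuc replicate 2 (-0.46, adjusted p = 0.0070), iEF replicate 3 (-0.37, adjusted p = 0.041), Δ22 replicate 2 (adjusted p = 0.046) or 3 (0.045) or mut9 replicate 2 (0.036). The 4 mutant constructs gave log2 values between -0.14 and -0.03, none of them called. IGF1R lies at chr15:99191768-99507759 on the plus strand and shares no exon base with another gene.

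IGF2R, the clearance receptor of IGF2, was the more abundant receptor per length. At 11.8 CPM per kb of exon in iEF it stood above IGF1R at 4.09, and the ratio of the pair was 2.98 ± 0.81 there and 1.99 ± 0.42 in iLuc. IGF2R measured 282, 230 and 288 CPM in iEF, 141, 184 and 114 in iLuc, and 165, 164 and 178 in WT-EF, with no overlap of either group with iEF. It was called lower in iLuc (log2 -0.88 ± 0.14, adjusted p = 2.1e-05) and with WT-EF (-0.66 ± 0.13, adjusted p = 0.00079). With the mutant constructs its log2 values lay between -0.28 and -0.20 and were not called.

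IGFBP3, which carries most IGF in the circulation, spanned the widest range of group means among the 10 genes, with a highest mean 405 times the lowest. Over single libraries that of IGFBP7 was wider, at 736 times against 471. It measured 17.5, 15.9 and 17.3 CPM in iLuc and 3771, 5873 and 3974 CPM in iEF, which is 269.8-fold lower with the endogenous fusion (log2 -8.08 ± 0.31, adjusted p = 1.1e-13). WT-EF libraries held 532, 259 and 267 CPM, and mut9 libraries 1718, 1288 and 2214 CPM. Each of these groups lay apart from the other and from both controls. IGFBP3 was 13.2-fold lower than iEF with WT-EF (log2 -3.73 ± 0.26, adjusted p = 1.4e-09) and 2.60-fold lower with mut9 (-1.38 ± 0.24, adjusted p = 0.00030). DAF libraries, at 5519, 4506 and 3566 CPM, overlapped with iEF and gave a log2 value of -0.03 (95% interval -0.51 to 0.45, adjusted p = 0.98). DAF-mut9 libraries, at 6780, 7489 and 6267 CPM, all lay above iEF, but the log2 value of 0.59 (0.10 to 1.07) did not pass the test (adjusted p = 0.21). It passed with the compared groups alone (0.028) and with no low-count filter (1.7e-06). For Δ22 the libraries held 6414, 6167 and 4600 CPM and the log2 value was 0.32 (-0.16 to 0.80, adjusted p = 0.61). The gene lies at chr7:45951844-45961473 on the minus strand and shares no exon base with another.

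IGFBP5, a matrix-bound binding protein, was alone among the members in being called in opposite directions in the 6 comparisons. It measured 19.9, 24.2 and 20.6 CPM in iLuc, 424, 278 and 315 CPM in iEF and 527, 329 and 299 CPM in WT-EF. In iLuc it was 15.7-fold lower than in iEF (log2 -3.97 ± 0.26, adjusted p = 1.3e-10), whereas WT-EF overlapped with iEF (0.16, 95% interval -0.32 to 0.64, adjusted p = 0.66). With the mutant constructs every library lay above every iEF library. The mut9 libraries held 1434, 2278 and 935 CPM and those of DAF 2333, 1851 and 1930 CPM. The DAF-mut9 libraries held 3798, 5254 and 2722 CPM and those of Δ22 2349, 2927 and 2565 CPM. The rise was 4.42-fold with mut9 (log2 2.14 ± 0.24, adjusted p = 2.4e-06) and 6.01-fold with DAF (2.59 ± 0.24, adjusted p = 1.2e-06). It was 11.3-fold with DAF-mut9 (3.5 ± 0.25, adjusted p = 3.3e-07) and 7.72-fold with Δ22 (2.95 ± 0.25, adjusted p = 4.5e-06). None of these calls was lost when any 1 library was left out. The level in iEF was thus not the highest, unlike that of IGFBP4 and IGFBP6, and cells with Δ22 and cells with the empty vector differed in this gene. Neither carries an EWS domain from a cDNA, but Δ22 keeps the FLI part. Mean FLI1 was 49.5 CPM with Δ22 and 20.6 CPM in iEF, and its part in this difference was not tested. IGFBP5 lies at chr2:217536828-217560272 on the minus strand, with 7.53% of its exon bases shared with DIRC3-AS1 on the other strand.

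IGFBP6, which prefers IGF2 as a ligand, and IGFBP7, a distant relative with low affinity for IGFs, were also lowest in iLuc. IGFBP6 measured 1.72, 1.59 and 1.05 CPM in iLuc, 6.22, 4.48 and 6.26 in WT-EF, 12.2, 12.1 and 13.8 in mut9, and 32.2, 47.6 and 37.7 in iEF, without overlap between any pair of these groups. The log2 values were -4.74 ± 0.21 in iLuc, -2.78 ± 0.19 with WT-EF and -1.62 ± 0.18 with mut9, with adjusted p = 7.5e-13, 1.2e-09 and 2.1e-06. IGFBP6 in DAF, at 21.2, 24.6 and 25.9 CPM, also lay below iEF (-0.71 ± 0.18, adjusted p = 0.015). That call was lost without iEF replicate 2 (adjusted p = 0.091), DAF replicate 1 (0.082) or DAF replicate 2 (0.060). Limma on ComBat-adjusted counts lost it too (0.060). DAF-mut9 and Δ22, at 33.2 ± 3.63 and 36.9 ± 7.25 CPM, overlapped with iEF and gave log2 values of -0.23 and -0.09.

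IGFBP7 had 15, 16 and 4 counts in the iLuc libraries (0.39, 0.35 and 0.10 CPM), against 42.0, 63.9 and 42.8 CPM in iEF. The fitted difference was 175-fold (log2 -7.45 ± 0.35, adjusted p = 1.0e-12), and its size rests on these few counts. WT-EF libraries, at 5.98, 6.00 and 7.91 CPM, and mut9 libraries, at 21.2, 23.9 and 26.3 CPM, lay between both controls. IGFBP7 was 7.24-fold lower than iEF with WT-EF (-2.86 ± 0.25, adjusted p = 2.9e-08) and 2.03-fold lower with mut9 (-1.02 ± 0.23, adjusted p = 0.0040). With limma on ComBat-adjusted counts the mut9 call was lost (adjusted p = 0.098). Means with DAF, DAF-mut9 and Δ22 were 51.7, 53.3 and 50.9 CPM beside 49.6 in iEF, and the log2 values were between 0.02 and 0.08. For IGFBP7, 18.3% of the exon bases overlap genes on the other strand, IGFBP7-AS1 and POLR2B.

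IGFBP4, which inhibits IGF action until PAPPA cleaves it, was a low transcript with its highest mean in iEF. Its libraries held 1.26, 0.55 and 0.73 CPM in iLuc, 1.08, 1.35 and 2.31 in WT-EF, 1.69, 3.39 and 2.12 in mut9, and 6.00, 8.35 and 6.30 in iEF. None of these 3 groups overlapped with iEF, and the log2 values were -3.0 ± 0.32, -2.12 ± 0.30 and -1.53 ± 0.29 (adjusted p = 1.7e-07, 1.6e-05 and 0.00095). DAF, DAF-mut9 and Δ22 libraries also lay below iEF, but their log2 values of -0.58, -1.01 and -0.78 did not pass the test (adjusted p = 0.27, 0.0585 and 0.18). For DAF-mut9 the call was gained without any 1 of the iLuc libraries (adjusted p = 0.023, 0.039 and 0.043), WT-EF replicate 3 (0.045) or mut9 replicate 2 (0.045). It was also gained with DESeq2 (0.014), limma (0.024), the compared groups alone (0.022) and no low-count filter (0.00063).

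IGFBP2 had the narrowest span of group means, 1.46-fold beside 1.49-fold for IGF1R, though over single libraries it spanned 2.25-fold and IGF1R 2.01-fold. It had means from 184 ± 32.4 CPM with WT-EF to 269 ± 88.6 CPM in iLuc. Every group overlapped with iEF, and log2 values lay between -0.26 and 0.27, none called. IGFBP2 and IGFBP5 lie tail to tail on chromosome 2 with 7668 bases between them, so a gene that was called in 5 of 6 comparisons with iEF and a gene called in none were neighbours.

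The constructs were then compared with each other. WT-EF against iLuc sets the rescue beside the endogenous fusion. Of the members, 6 differed, 5 higher and 1 lower, beside 18.3% of all genes, with a median log2 value of 1.03 over the members and 0.02 over all genes. IGF1 was 2.27-fold higher with WT-EF than in iLuc (log2 1.19 ± 0.22, adjusted p = 0.00062), a call lost with limma on ComBat-adjusted counts (1.14, adjusted p = 0.11). IGFBP3 was 20.4-fold (4.35 ± 0.27), IGFBP5 17.6-fold (4.14 ± 0.26), IGFBP6 3.88-fold (1.96 ± 0.21) and IGFBP7 24.2-fold (4.59 ± 0.35) higher, with adjusted p between 4.5e-10 and 7.7e-07. All 3 WT-EF libraries lay above every iLuc library for each of these 5 genes. IGFBP2 was called lower (-0.53 ± 0.16, adjusted p = 0.027), with ranges that overlapped. This call was lost without iLuc replicate 1 (adjusted p = 0.061) or 2 (0.27), or without WT-EF replicate 1 (0.11), 2 (0.060) or 3 (0.12). IGFBP4 (0.87, adjusted p = 0.075) passed without iLuc replicate 1 (1.44, adjusted p = 0.0040), and IGF2R (0.22, adjusted p = 0.31) without iLuc replicate 2 (0.45, adjusted p = 0.021). IGFBP4 also passed with DESeq2 (adjusted p = 0.036) and with no low-count filter (0.015).

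Between mut9 and WT-EF, 5 members differed, all higher with mut9, beside 6.15% of all genes, with medians of 0.76 and 0.05. IGFBP3 was 5.09-fold higher (log2 2.35 ± 0.24, adjusted p = 9.6e-06), IGFBP5 3.95-fold (1.98 ± 0.24), IGFBP7 3.56-fold (1.83 ± 0.24) and IGFBP6 2.24-fold (1.16 ± 0.18). IGF1R was 1.46-fold higher (0.54 ± 0.12, adjusted p = 0.0099), a call lost without WT-EF replicate 3 (adjusted p = 0.097), mut9 replicate 1 (0.072) or mut9 replicate 3 (0.074). Limma on ComBat-adjusted counts lost it too (0.065). IGF1 was higher in all 3 mut9 libraries than in any WT-EF library, with a log2 value of 0.59 (95% interval 0.14 to 1.05) that did not pass the test (adjusted p = 0.13). It passed with the compared groups alone (0.56, adjusted p = 6.3e-05) and with no low-count filter (adjusted p = 0.0031). IGF2R, at 0.45 (adjusted p = 0.052), passed without iLuc replicate 2 (0.026) or 3 (0.018), iEF replicate 2 (0.031) or 3 (0.049), or mut9 replicate 2 (0.031).

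With tyrosines changed to alanine in the full-length protein (DAF against WT-EF), 8 members differed, 7 higher and 1 lower. This stood beside 24.9% of all genes, with medians of 1.04 and -0.03. IGF1 fell by 1.60 ± 0.23 on the log2 scale, or 3.02-fold (adjusted p = 1.9e-05). IGFBP3 rose 13.0-fold (log2 3.70 ± 0.26), IGFBP7 7.66-fold (2.94 ± 0.25), IGFBP5 5.37-fold (2.42 ± 0.24), IGFBP6 4.2-fold (2.07 ± 0.19) and IGFBP4 2.92-fold (1.54 ± 0.30, adjusted p = 0.00063). The rises of IGF1R (0.43 ± 0.12, adjusted p = 0.014) and IGF2R (0.44 ± 0.13, adjusted p = 0.018) were smaller. The first was lost without WT-EF replicate 1 (adjusted p = 0.0503) or 3 (0.0967) or DAF replicate 1 (0.055). The second was lost without WT-EF replicate 1 (0.092) or 2 (0.11) or DAF replicate 1 (0.072) or 2 (0.054). Limma on ComBat-adjusted counts lost both calls (adjusted p = 0.22 for IGF1R and 0.14 for IGF2R). IGFBP2 (0.35, adjusted p = 0.14) passed without DAF replicate 2 (0.54, adjusted p = 0.021).

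With the same kind of change in the shortened protein (DAF-mut9 against mut9), 5 members differed, 4 higher and 1 lower. This stood beside 9.83% of all genes, with medians of 0.45 and -0.04. IGF1 fell by 4.50 ± 0.26 on the log2 scale, or 22.6-fold (adjusted p = 9.9e-10). IGFBP3 rose 3.90-fold (log2 1.96 ± 0.24, adjusted p = 8.7e-06), IGFBP6 2.61-fold (1.38 ± 0.18), IGFBP5 2.56-fold (1.35 ± 0.23) and IGFBP7 2.15-fold (1.10 ± 0.23, adjusted p = 0.0030, or 0.095 with limma). Between DAF and mut9, 4 members differed, beside 6.61% of all genes, with medians of 0.34 and -0.05. IGF1 was 4.56-fold lower with DAF (log2 -2.19 ± 0.23, adjusted p = 5.3e-06). IGFBP3 (1.35 ± 0.23), IGFBP7 (1.10 ± 0.23) and IGFBP6 (0.91 ± 0.18) were higher, of which IGFBP7 was lost with limma (adjusted p = 0.099). IGFBP4 (0.95, adjusted p = 0.059) passed without any of the iLuc libraries (adjusted p = 0.018, 0.033 and 0.046), iEF replicate 3 (0.046), WT-EF replicate 3 (0.039) or mut9 replicate 2 (0.040). It also passed with DESeq2 (0.013), limma (0.046), the compared groups alone (0.025), edgeR's filterByExpr filter (0.041) and no low-count filter (0.0021).

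DAF and Δ22 differed in 1 member, beside 0.972% of all genes. IGF1 was 7.18-fold higher with DAF (log2 2.84 ± 0.25, adjusted p = 1.6e-06), and all 3 DAF libraries lay above every Δ22 library. For IGFBP3 the difference was -0.34 (95% interval -0.82 to 0.14), for IGFBP5 -0.36 (-0.84 to 0.12) and for IGFBP7 0.06 (-0.41 to 0.54). IGFBP6 was lower in all DAF libraries, with -0.62 (-0.99 to -0.26) and an adjusted p of 0.13. It passed with DESeq2 (adjusted p = 0.045), the compared groups alone (0.0073) and no low-count filter (0.0087). IGFBP3 passed with no low-count filter (0.0495). Between DAF-mut9 and Δ22 edgeR called 0 members and 0% of all genes. At an unadjusted p under 0.05 it gave 2 members, IGF1 (0.53, 95% interval 0.01 to 1.05) and IGFBP5 (0.55, 0.07 to 1.03), and DESeq2 called 0. Limma called 0 of the 8 members it could test, which do not include IGFBP5.

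Whether the difference that came with tyrosine substitution was unequal in the full-length and the shortened protein was tested as an interaction. It is the DAF-mut9 against mut9 change minus the DAF against WT-EF change. The tyrosines replaced are not the same set in both. Of the members 3 passed, all with negative values, beside 3.33% of all genes, with medians of -1.05 and -0.05. IGF1 gave -2.91 ± 0.32 (adjusted p = 2.1e-05), since it fell by 4.50 in the shortened and by 1.60 in the full-length protein. IGFBP3 gave -1.74 ± 0.33 (adjusted p = 0.0037), with rises of 1.96 and 3.70, and IGFBP7 gave -1.83 ± 0.33 (adjusted p = 0.0026), with rises of 1.10 and 2.94. IGFBP5, at -1.07 ± 0.33 (adjusted p = 0.083), passed without WT-EF replicate 1 (0.040), mut9 replicate 3 (0.041) or DAF-mut9 replicate 2 (0.0499). It also passed with DESeq2 (0.041), the compared groups alone (0.040) and no low-count filter (3.4e-10). IGF1R (0.0496), IGF2R (0.021) and IGFBP6 (0.040) passed only with the compared groups alone. IGFBP2, at 0.02 (95% interval -0.46 to 0.50), was the member nearest to 0.

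**Figure D3:**
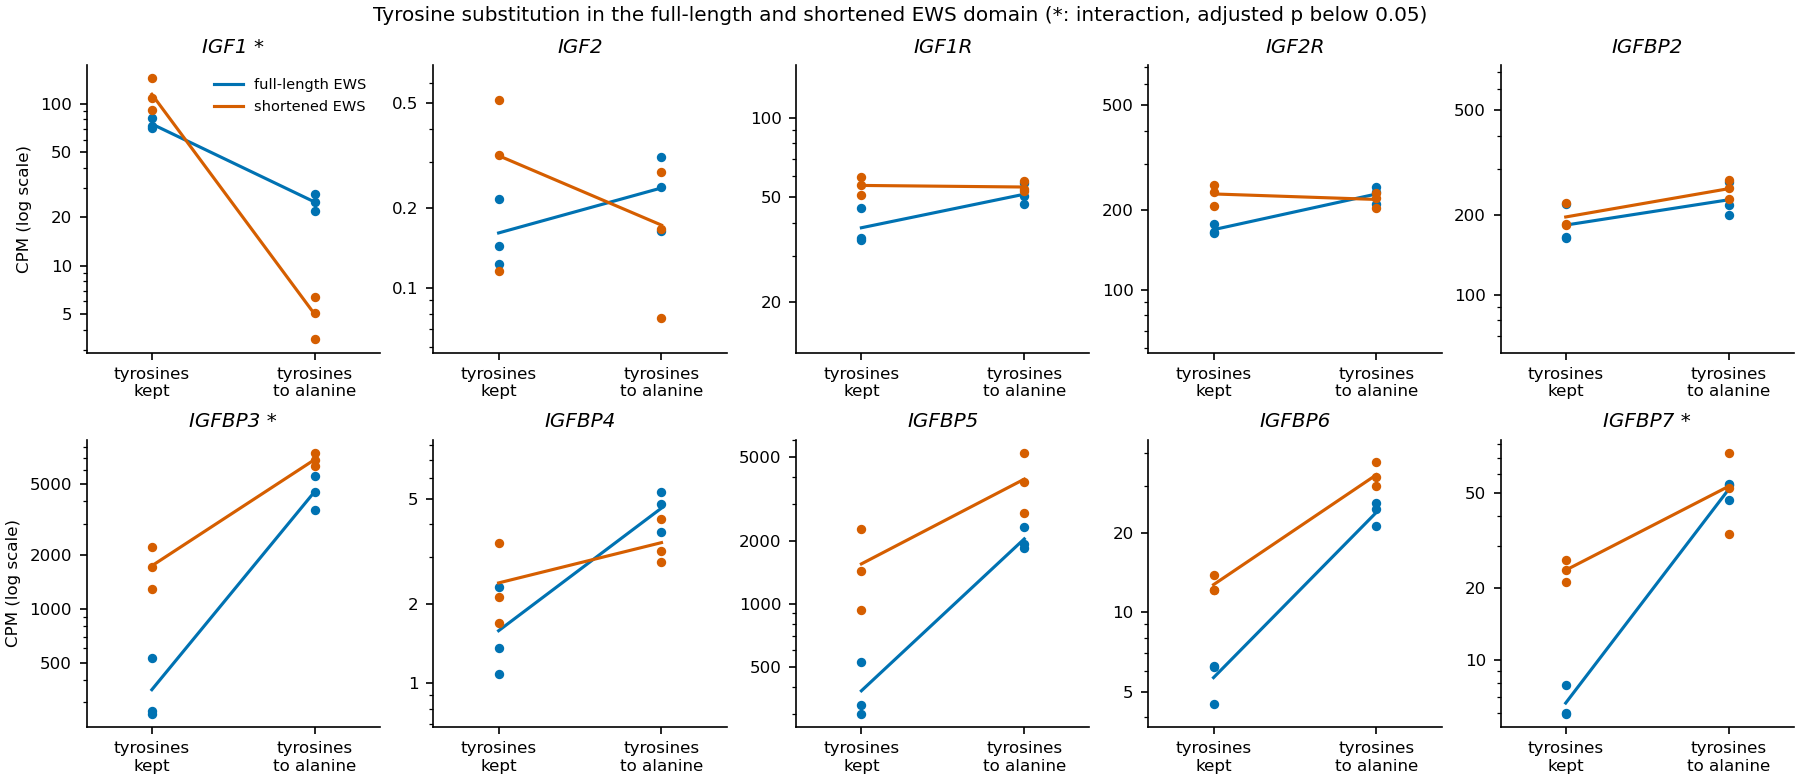
CPM on a log axis of each member in WT-EF and DAF (full-length EWS) and in mut9 and DAF-mut9 (shortened EWS), with points for libraries and lines between the means of 3. The asterisk marks IGF1, IGFBP3 and IGFBP7, whose changes differed between both protein lengths; the IGF1 line of the shortened protein falls more steeply, and its IGFBP3 and IGFBP7 lines rise less.

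Levels of different genes were compared only per length, in CPM per kb of exon. The sum of the 6 binding proteins was 65.3 ± 18.9 in iLuc, 184 ± 49.6 with WT-EF and 685 ± 24.4 with mut9. It was 1151 ± 270.0 in iEF, 1402 ± 242 with DAF, 1765 ± 226 with Δ22 and 2212 ± 346 with DAF-mut9. In iEF it was thus 17.6 times the iLuc mean, and with DAF-mut9 it was 1.92 times the iEF mean. The make-up differed as well. IGFBP2 made up 86.1% ± 3.18 of the sum in iLuc and 4.04% ± 0.35 in iEF, where IGFBP3 made up 86.1% ± 1.71. IGFBP5 made up 4.82% ± 1.90 of it in iEF, 5.29% ± 0.95 in iLuc, 32.1% ± 1.53 with WT-EF, 22.7% ± 2.28 with DAF, 23.1% ± 3.47 with Δ22, 27.0% ± 4.61 with DAF-mut9 and 34.9% ± 14.6 with mut9. The 6 proteins differ in their affinity for IGFs, so this sum is one of transcripts and not of binding capacity.

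IGF1 per kb was 4.02 ± 0.90 in iLuc, 9.24 ± 0.75 with WT-EF, 14.1 ± 3.29 with mut9, 3.04 ± 0.36 with DAF and 0.43 ± 0.15 with Δ22. The binding protein sum over IGF1 was 16.6 ± 5.09 in iLuc, 20.1 ± 6.05 with WT-EF and 50.2 ± 10.97 with mut9. It was 472 ± 138 with DAF, 2204 ± 484 in iEF, 3850 ± 1356 with DAF-mut9 and 4297 ± 1014 with Δ22. The libraries of iLuc and WT-EF overlapped in this ratio, at 11.7, 21.8 and 16.3 against 27.0, 16.0 and 17.2. Those of mut9, at 49.2, 39.8 and 61.7, and of DAF, at 620.3, 447 and 347, each stood apart from every other group.

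**Figure D4:**
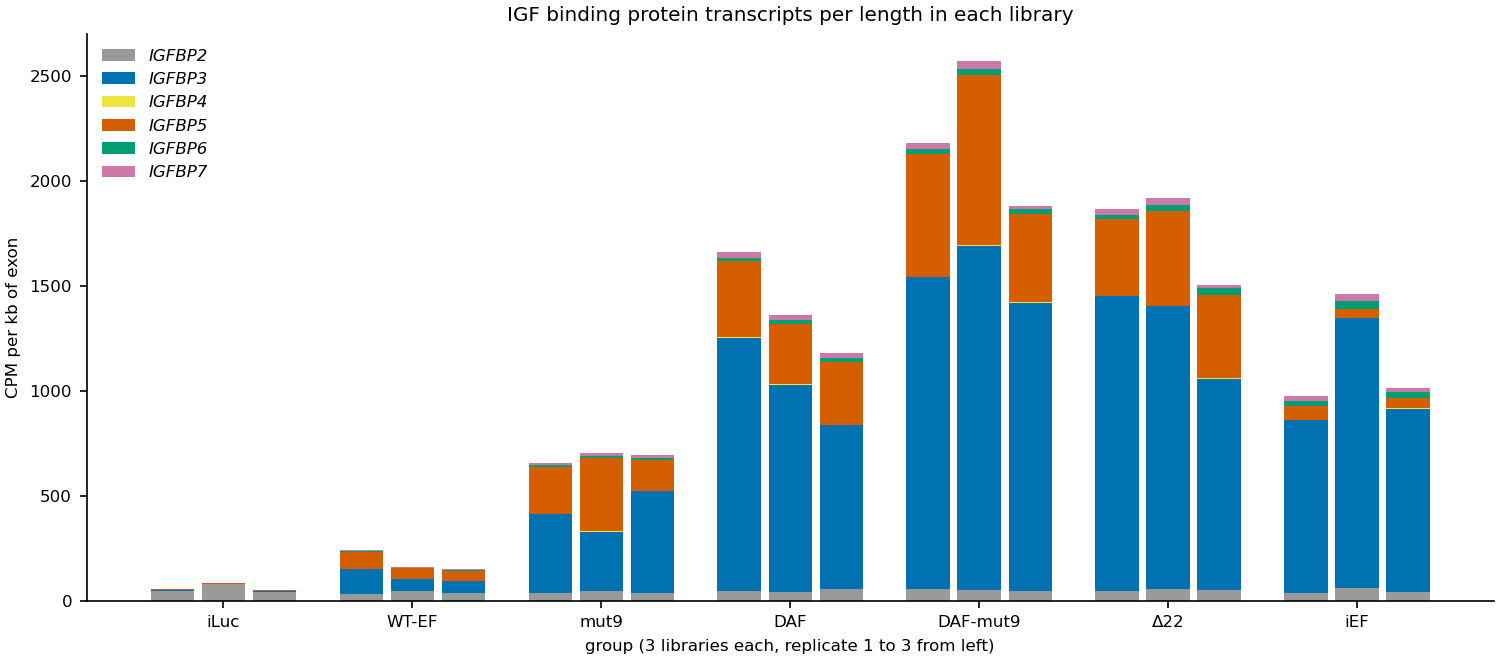
Stacked bars of the 6 binding protein transcripts in CPM per kb of exon, 1 bar per library. The sum is smallest in iLuc, where IGFBP2 makes up most of it, and the IGFBP5 portion is larger with WT-EF and the mutant constructs than in iEF.

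Beyond the members, 57 other genes of the pathway were listed by role, of which 53 were tested and INS, IGF2-AS, H19 and IRS4 were not. In iLuc 31 of the 53 differed from iEF, with 10 higher and 21 lower, which is 58.5% beside 41.1% of all genes. With WT-EF 27 differed (6 higher, 21 lower), or 50.9% beside 28.3%. With mut9 the count was 18 (6 and 12), or 34.0% beside 14.6%, and with DAF it was 6 (2 and 4), or 11.3% beside 7.42%. DAF-mut9 had 2 (1 and 1), or 3.77% beside 3.40%, and Δ22 had 1, which was lower, or 1.89% beside 2.67%, both near the share of all genes. The median log2 value over the 53 was -0.22 in iLuc and -0.31 with WT-EF, beside 0.01 and 0.00 over all genes. Of 8 proteases that cleave binding proteins, or their inhibitors, 2 were higher and 5 lower in iLuc, and 0 higher and 6 lower with WT-EF, where 41.1% and 28.3% of all genes were called. All 3 proteases of pro-IGF processing, FURIN, PCSK5 and PCSK6, were lower in iLuc as well as with WT-EF. There 22.4% and 16.9% of all genes were called lower. None of the 3 was called against iEF with mut9, DAF, DAF-mut9 or Δ22. Of 18 genes from PI3K to FOXO and TSC, 3 were higher and 5 lower in iLuc, close to the 41.1% of all genes.

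Among the genes that were lower, HTRA1 and ADAM12, proteases that cleave IGF binding proteins, rose from iLuc through WT-EF and mut9 to iEF. The means of IGFBP3, IGFBP4, IGFBP6 and IGFBP7 rose in this order too, as did those of STC1, IGFBP1 and SOCS2, described below. HTRA1 was at 0.20 ± 0.04 CPM in iLuc, 8.38 ± 0.92 with WT-EF, 21.7 ± 2.12 with mut9 and 60.7 ± 4.19 in iEF. Its log2 values against iEF were -8.21 ± 0.32, -2.86 ± 0.22 and -1.48 ± 0.21. ADAM12 was at 0.34 ± 0.25, 3.74 ± 1.05, 10.9 ± 0.96 and 41.8 ± 6.79 CPM in the same groups, with log2 values of -6.96 ± 0.34, -3.48 ± 0.26 and -1.94 ± 0.24. Every adjusted p of the pair in these comparisons was at most 3.2e-05. STC1, an inhibitor of the IGFBP4 protease PAPPA, was lower in iLuc (log2 -4.28 ± 0.26) and with WT-EF (-2.19 ± 0.23). With DAF-mut9 it was higher than in iEF (0.92 ± 0.23, adjusted p = 0.027), a call lost without iEF replicate 2 (0.12) or 3 (0.060) or DAF-mut9 replicate 1 (0.083), 2 (0.14) or 3 (0.055). It was also lost with no replicate block (0.101) and with limma (0.66), and limma lost the WT-EF call too (0.064).

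IGFBP1, the acute metabolic regulator of free IGF, lies 18584 bases from IGFBP3 on chromosome 7. It had 3 counts over the iLuc libraries together and 1039 over those of iEF, a ratio of 384 in CPM with an exact 95% interval of 131 to 1867 that covers counting error only. Its level was 9.30 ± 0.80 CPM in iEF, 0.36 ± 0.19 with WT-EF, 1.70 ± 1.13 with mut9 and 14.6 ± 1.89 with DAF-mut9. It was called lower with WT-EF (log2 -4.73 ± 0.40, adjusted p = 2.0e-08) and mut9 (-2.52 ± 0.34, adjusted p = 2.1e-05). SOCS2, a feedback inhibitor of cytokine and growth hormone signals, was lower in iLuc (-2.34 ± 0.33, adjusted p = 6.4e-06).

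IRS2, an adaptor that couples IGF1R to PI3K, had the largest rise in iLuc among the other pathway genes at 5 CPM or more. It was at 143 ± 29.0 CPM in iLuc, 161 ± 2.92 with WT-EF and 135 ± 11.9 with mut9, against 45.2 ± 20.8 in iEF. The log2 values were 1.70 ± 0.21, 1.87 ± 0.21 and 1.62 ± 0.21, with adjusted p of at most 1.6e-05. With DAF it was at 59.2 ± 2.86 CPM (0.42, adjusted p = 0.28), and it passed without iEF replicate 3 (0.82, adjusted p = 0.0093). IGF2BP1, which binds IGF2 mRNA, was higher in iLuc (1.32 ± 0.10), with WT-EF (0.79 ± 0.10) and with mut9 (0.65 ± 0.10). GAB1, an adaptor, and FOXO4, a transcription factor that AKT inhibits, were higher in iLuc by 0.99 ± 0.16 and 1.02 ± 0.29 on the log2 scale, though the FOXO4 libraries of iLuc overlapped with those of iEF.

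INSR, the insulin receptor, which also pairs with IGF1R, had an order of its own. Its libraries held 24.4, 42.9 and 32.1 CPM in iLuc, 13.4, 21.2 and 15.1 in WT-EF, 20.2, 39.6 and 26.5 in DAF, and 13.7, 17.9 and 14.6 in iEF. Replicate 2 was the highest library in each of these groups. INSR was higher than in iEF in iLuc (log2 1.08 ± 0.13, adjusted p = 8.3e-07), with DAF (0.86 ± 0.13, adjusted p = 0.00023) and with mut9 (0.58 ± 0.13, adjusted p = 0.0037), while WT-EF gave 0.09 (adjusted p = 0.68). It was also higher with DAF than with Δ22 (0.87 ± 0.13, adjusted p = 0.00075), a call that was lost with no replicate block (adjusted p = 0.105), as was that with mut9 (0.111). Its interaction value was -1.43 ± 0.18 (adjusted p = 8.2e-05).

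**Figure D5:**
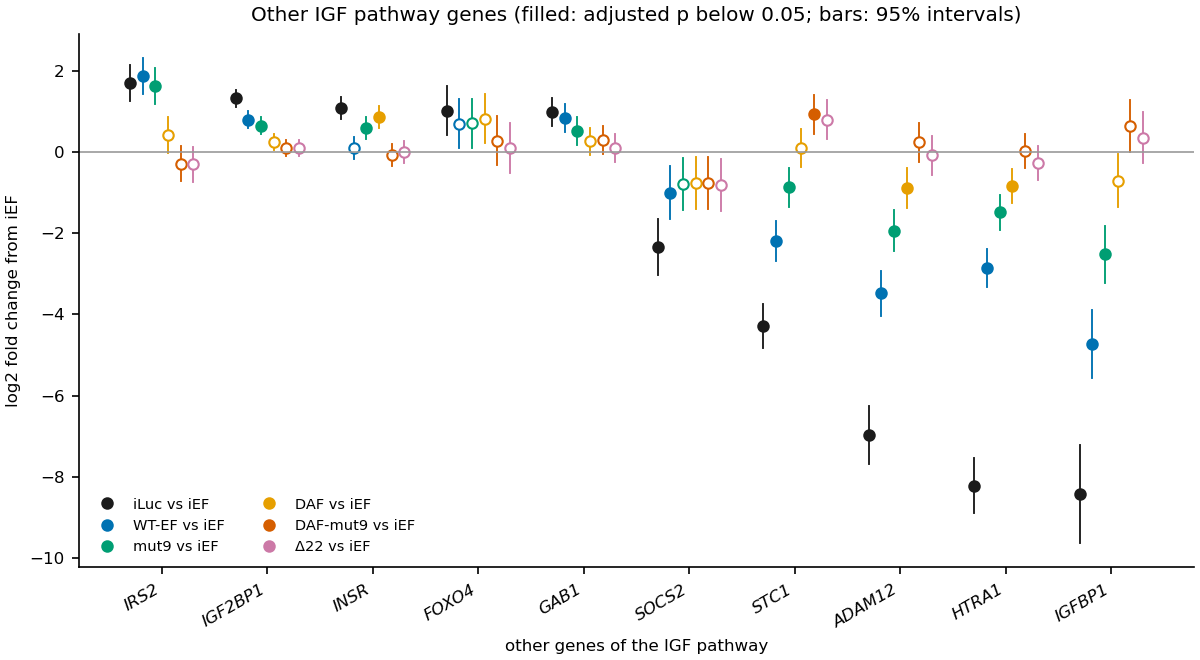
Log2 fold change from iEF of 10 other IGF pathway genes in 6 comparisons, with 95% intervals; filled points passed an adjusted p of 0.05. Values of HTRA1, ADAM12 and IGFBP1 approach 0 from iLuc to mut9, and INSR is raised with DAF but not with WT-EF; the IGFBP1 value in iLuc rests on 3 counts.

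Genes most like each member were ranked by Pearson r of log2 CPM over the 21 libraries, among 10635 genes with a mean of at least 5 CPM. The points share groups and libraries, so these values are a description. IGF1 was followed most closely by SLCO5A1 (r = 0.975) and CACHD1 (0.968). IGFBP3 had ITGA3 (0.994) and TM4SF1 (0.993), IGFBP6 had PLAT (0.990) and PPFIBP1 (0.988), and IGFBP7 had ALPK2 (0.986) and ITGA11 (0.986). For IGFBP5 the closest were MAP3K3 and SNRK, both at 0.960, and for IGF2R they were LACC1 (0.949) and ITGAV (0.939). IGFBP2, with DDR2 at 0.854, and IGF1R, with SYTL4 at 0.825, had the lowest best values.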

How the data were processed

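RNA-seq of A673 cells was analysed from the deposited tables, with groups and replicate numbers taken from the sample labels. DAF-mut9 was taken to be the construct written mut9d in the column names. The authors used STAR on hg19, and each deposited value is a raw count per gene made by htseq-count (intersection-strict). Neither the gene annotation used nor the strand option is given in the sources used here. The authors also deposited ComBat-adjusted counts, a signal not scaled for library size, used only in an alternative with limma, which covered 8 of the 10 members and not IGFBP3 or IGFBP5. The authors' deposited table of log2 fold changes, mean signal and p-values was not used. Of 57820 genes, 30549 averaging 1 count or more over the libraries entered the test in R 4.3.3 with edgeR 4.0.16 (TMM, quasi-likelihood, group and replicate set in a single fit of 21 libraries, Benjamini-Hochberg over all tested genes). SE and 95% intervals are those of the fitted log2 fold change, and SD is over 3 libraries. Same-numbered libraries correlated weakly in their deviations from group means (r -0.03 to 0.23, median 0.08, 23 of 63 pairs over 0.1). Libraries of different groups and numbers had a median of -0.04, with 1 of 126 pairs over 0.1. The set was kept as a term because the authors adjusted for it. Replicate pairs correlated at 0.974 to 0.990 and none agreed within sampling noise. Named genes were the members, the most changed called other pathway genes in iLuc (up to 5 higher and 5 lower, mean of 5 CPM or more), and the 2 genes most like each such member. Members and lists were chosen with earlier results of these data known. The script was tested on simulated counts. Alternatives were DESeq2 1.42.0, limma 3.58.1 (pseudocount 1), no replicate block, RLE normalization, other filters, compared groups alone, a 2-fold requirement and leaving out each library. Those for the other pathway genes were added after the data were seen. Gene places are from GENCODE 44 on GRCh37, and promoters from RefSeq.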

Additional observations from a re-analysis of the deposited data

Results flagged for a closer look

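For 3 members the interaction test found that the change with tyrosine substitution was not equal in the shortened and the full-length protein. The interaction values on the log2 scale were -2.91 for IGF1, -1.74 for IGFBP3 and -1.83 for IGFBP7. They stayed past the threshold when any 1 library was left out. With limma on the ComBat-adjusted counts the adjusted p was 0.068 for IGF1 and 0.12 for IGFBP7, so neither passed, and IGFBP3 could not be tested. All 3 come from a single pair of contrasts that share no library, and the replaced tyrosines differ between them.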

How the results depend on the processing

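Of 140 results for single members, 61 were called. Limma on ComBat-adjusted counts gave no value for IGFBP3, IGFBP5, HTRA1, ADAM12 and IGFBP1. Of the 43 called results with all 29 alternatives, 26 kept their call throughout and 17 lost it in at least 1. The 18 of IGFBP3 and IGFBP5 kept it in 28, with limma not among them, and 21 of 79 results gained one. Among 4032 alternative values 65 lost and 70 gained a call, and none changed direction while called. With no replicate block the members called fell from 2 to 1 with DAF-mut9 and from 2 to 1 with Δ22, and IGFBP2 in WT-EF against iLuc (adjusted p = 0.060) and IGF1R in mut9 (0.071) and DAF (0.070) against WT-EF were lost. Limma covers 8 members. Its count was 1 for Δ22 (1 of these 8 in the text's fit), 3 for WT-EF against iLuc (4), 2 for mut9 (3) and 4 for DAF (6) against WT-EF, 2 for DAF-mut9 against mut9 (3) and 0 for the interaction (2). With no low-count filter they were 4 for DAF-mut9, 3 for DAF against Δ22 and 1 for DAF-mut9 against Δ22. With the compared groups alone they were 2 for DAF against Δ22 and 7 for the interaction, and DESeq2 gave 2 for DAF against Δ22. Beyond the members limma leaves out, the cause was not tested. Leaving out 1 library gave 1 to 3 members with DAF-mut9, 1 to 2 with Δ22, 8 to 9 in iLuc, 8 with WT-EF, 6 to 7 with mut9 and 2 to 4 with DAF. It gave 5 to 6 for WT-EF against iLuc, 4 to 6 for mut9 and 6 to 8 for DAF against WT-EF, 4 to 5 for DAF against mut9, 5 for DAF-mut9 against mut9, 1 and 0 for DAF and DAF-mut9 against Δ22, and 3 to 4 for the interaction.

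Over all genes, the 2-fold requirement left, against iEF, 539 genes for Δ22, 648 for DAF-mut9, 1292 for DAF, 2779 for mut9, 4985 for WT-EF and 7909 for iLuc. For the direct comparisons it left 2918 for WT-EF against iLuc, 965 for mut9 and 3919 for DAF against WT-EF, 1007 for DAF and 1723 for DAF-mut9 against mut9. The unfiltered table gave 2243 with DAF-mut9, 2144 with Δ22, 3082 for DAF against mut9, 906 for DAF against Δ22 and 2007 for the interaction. The compared groups alone gave 1510 with DAF, 5116 for mut9 against WT-EF, 4848 for DAF-mut9 against mut9, 682 for DAF against Δ22 and 2408 for the interaction. No replicate block gave 684 with DAF-mut9, 508 with Δ22 and 178 for DAF against Δ22, and DESeq2 475 for the last and 1613 for the interaction. The matching counts in the text's fit were 817, 1038, 2268, 4445, 8635 and 12560 against iEF in that order. They were 5591 for WT-EF against iLuc, 1878 for mut9 and 7615 for DAF against WT-EF, 2018 for DAF and 3003 for DAF-mut9 against mut9, 297 for DAF against Δ22 and 1017 for the interaction. Leaving out 1 library gave 185 to 1123 genes for Δ22 (fewest without Δ22 replicate 3), 323 to 1467 for DAF-mut9 (DAF-mut9 replicate 1), 1312 to 2862 for DAF (DAF replicate 1) and 2688 to 5155 for mut9 (mut9 replicate 2) against iEF. It gave 696 to 2474 for mut9 against WT-EF (WT-EF replicate 2), 876 to 2662 for DAF (mut9 replicate 2) and 1754 to 3589 for DAF-mut9 against mut9 (mut9 replicate 2), 170 to 381 for DAF against Δ22 (Δ22 replicate 1 or DAF replicate 2) and 505 to 1428 for the interaction (mut9 replicate 1). Counts of other pathway genes, 46 of 53 with a limma value, ran from 0 to 5 for Δ22, 0 to 6 for DAF-mut9, 3 to 14 for DAF, 10 to 20 for mut9, 14 to 29 for WT-EF and 19 to 33 for iLuc. Of 4018 alternative values for the 10 named ones, 76 lost and 51 gained a call. IGF2, with 2 to 40 counts a library, IGFBP7 in iLuc and IGFBP1 in iLuc are limited by depth.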

Other observations

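IGF2BP1, IGF2BP2 and IGF2BP3 bind IGF2 mRNA, and in iLuc 1 of the 3 was higher and 1 lower than in iEF, where 41.1% of all genes were called. The counts were the same with WT-EF and with mut9, beside 28.3% and 14.6%. Of the 4 other receptors, INSR, INSRR, LRP1 and TMEM219, 2 were higher than in iEF and 0 lower with DAF, where 7.42% of all genes were called, and 1 was higher and 1 lower with WT-EF, where 28.3% were.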
